A study of Mus musculus with 12 samples.

Results

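The genes described here are 10 genes of the MHC class I presentation pathway, chosen by name and matched by their GENCODE mouse symbols to the identifiers of the count tables, out of 54446 genes counted in each library. They are the class I heavy chains *H2-K1* and *H2-D1* and their light chain *B2m*, the loading and trimming genes *Tap2*, *Tapbp* and *Erap1*, the immunoproteasome subunits *Psmb8*, *Psmb9* and *Psmb10*, and the transactivator *Nlrc5*. RNA was recovered with YTHDF2, a reader protein of N6-methyladenosine (m6A) in RNA, from CD11b+ myeloid cells that had infiltrated MC38 tumors, a mouse colon carcinoma line grown in mice. All groups were WT (the methods give the genotype as *Ythdf2* f/f). Tumors were left unirradiated (Ctrl) or received a single dose of 20 Gy of local radiation (IR), and cells were collected 3 days after IR. Each condition had 3 pools, each from 5 mice, which the methods call technical replicates, and every pool gave an Input library, taken from the lysate before the antibody was added, and a YTHDF2 IP library. The 12 libraries thus form the groups Ctrl Input, IR Input, Ctrl IP and IR IP with n = 3 each, and the p-values measure only the spread between these pools. No library from a non-specific antibody was analysed here, so a gene that is higher in IP than in Input is enriched relative to the other genes of that lysate.

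MHC class I molecules show peptides from inside the cell to CD8+ T cells. Proteins are cut by the proteasome, whose catalytic subunits are exchanged for *Psmb8*, *Psmb9* and *Psmb10* in immune cells and under interferon, and the peptides are pumped into the endoplasmic reticulum by the *Tap1* and *Tap2* transporter, trimmed by *Erap1* and loaded with the help of *Tapbp* (tapasin) onto a heavy chain paired with *B2m*. *Nlrc5* is an NLR family protein that enters the nucleus and drives transcription of class I chain genes at a conserved promoter module. YTHDF2 binds m6A-modified RNA and promotes its decay, and GGACT in DNA letters is the most common form of the sequence in which m6A is placed on mRNA.

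Between 34445784 and 42382532 reads were counted on genes in the Inputs, and between 27852948 and 33882664 in the IPs. Of the uniquely aligned reads, 24.65% to 26.98% fell on no gene in the Inputs, 41.77% to 42.69% in the Ctrl IPs and 49.41% to 54.09% in the IR IPs, with the highest share in the IR IP of pool 1. The level that 3 counts are worth lay between 0.0708 and 0.108 CPM, below every value given here for the members, which had at least 207 counts in each library (*Erap1* in an IR IP). Markers of myeloid cells (7 of 7 found, among them *Itgam*, which encodes CD11b) summed to 5670 to 7911 CPM in the Inputs. T and NK cell markers summed to 4.06 to 6.0 CPM there, with *Cd3e*, *Cd8b1* and *Ncr1* at no more than 3 counts in every Input. *Ythdf2* itself was at 58.0 ± 0.472 CPM in the Ctrl Inputs and 51.5 ± 3.81 CPM in the IR Inputs (SD, n = 3).

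The heavy chains and *B2m* were among the most abundant members in the Input, and *B2m* was the member that fell furthest from Input to IP. In CPM (counts scaled to the library total, on the TMM scale of the 12 libraries), *B2m* (chromosome 2, 122147686 to 122153083, mm10) was at 361, 379 and 385 CPM in the Ctrl Inputs of pools 1 to 3, 495, 495 and 490 CPM in the IR Inputs, 37.5, 32.1 and 36.9 CPM in the Ctrl IPs and 33.2, 51.7 and 47.6 CPM in the IR IPs. Every IP was far below every Input, and the IR Inputs lay above the Ctrl Inputs, whereas the IPs of both conditions overlapped. *H2-K1* (chromosome 17, 33996017 to 34000347) was at 418, 434 and 429 CPM in the Ctrl Inputs, 515, 539 and 540 CPM in the IR Inputs, 285, 289 and 277 CPM in the Ctrl IPs and 303, 264 and 265 CPM in the IR IPs. *H2-D1* (chromosome 17, 35262730 to 35267499) was at 616, 651 and 656 CPM in the Ctrl Inputs, 716, 742 and 741 CPM in the IR Inputs, 297, 313 and 278 CPM in the Ctrl IPs and 274, 287 and 310 CPM in the IR IPs. Both heavy chains showed the same layout as *B2m*, with IPs that did not separate by condition below Inputs that did. The values of both are uncertain to the extent that reads fit several class I genes: 8.79% of the 50-base windows of the *H2-K1* transcript and 14.3% of those of *H2-D1* occur in another gene, and none of those of *B2m* do. The genes sharing most with *H2-K1* were *H2-D1*, *H2-Q1*, *H2-T23* and *H2-Q4*. Those sharing most with *H2-D1* were *H2-Q1*, *H2-Q7*, *H2-Q6* and *H2-K1*, so that the heavy chains also share sequence with each other.

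**Figure D1:**
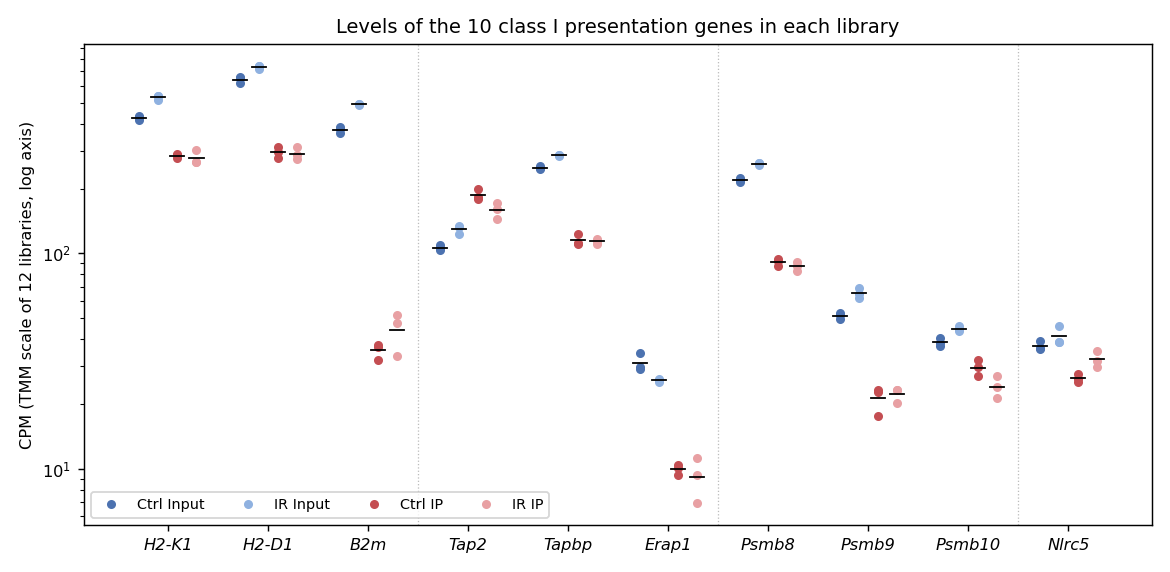
CPM of the 10 genes (log axis, TMM scale of the 12 libraries). Points are pools, 3 in each of Ctrl Input, IR Input, Ctrl IP and IR IP, and black lines are group means; dotted lines separate chains, loading and trimming genes, immunoproteasome subunits and *Nlrc5*. *Tap2* is the member whose IPs (144 to 199 CPM) lie above its Inputs (104 to 134 CPM), and *B2m* has the widest gap in the opposite direction.

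The stretches upstream of *H2-K1* and *B2m* show the module through which *Nlrc5* and its partners act on class I chains. They come from the promoter windows of RefSeq (mm10), end at the base before the annotated gene, and read 5′ to 3′ on the strand of the gene. Capitals mark, on either strand, GAANNGAAA (an interferon response motif), TGACG (the core of the X2 box) and CCAAT (the Y box), none of which overlap each other here.

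*H2-K1*, chr17:34000348-34000487, minus strand: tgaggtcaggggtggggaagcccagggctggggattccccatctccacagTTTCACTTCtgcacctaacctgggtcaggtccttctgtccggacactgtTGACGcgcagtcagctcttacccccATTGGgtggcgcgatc

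*B2m*, chr2:122147566-122147685, plus strand: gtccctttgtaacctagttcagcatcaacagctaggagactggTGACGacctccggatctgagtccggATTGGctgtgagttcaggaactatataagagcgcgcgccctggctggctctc

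*H2-K1* carries the 3 motifs in the order given, and *B2m* carries TGACG and CCAAT at similar spacing to each other. In windows of 250 bases upstream of the start, GAANNGAAA was found in 6.31% of 32851 promoters and, among the members, in *H2-K1* and *H2-D1*. Other forms of the interferon response motif were not searched. The *B2m* window holds GAAACTGAAA upstream of the stretch shown, a form with a longer gap that this search cannot match. TGACG was found in 17.8% of all promoters and, among the members, in *H2-K1*, *H2-D1*, *B2m* and *Psmb9*, and CCAAT was found in 33.8% and, among the members, in these 4 and *Tapbp*. Windows were found for 8 of the 10 members, *Tap2* and *Nlrc5* being without one. A match is a description of these letters and not evidence of binding.

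*Tap2* was the one member that was higher in IP than in Input. *Tap2* (chromosome 17, 34203527 to 34216321), a subunit of the peptide transporter, was at 106, 109 and 104 CPM in the Ctrl Inputs, 132, 123 and 134 CPM in the IR Inputs, 198, 183 and 178 CPM in the Ctrl IPs and 171, 144 and 160 CPM in the IR IPs. All its IPs lay above all its Inputs, and neither the Inputs nor the IPs of the conditions overlapped. *Tapbp* (chromosome 17, 33915899 to 33929292) was at 255, 246 and 248 CPM in the Ctrl Inputs, 282, 287 and 285 CPM in the IR Inputs, 111, 112 and 123 CPM in the Ctrl IPs and 117, 114 and 110 CPM in the IR IPs. *Erap1* (chromosome 13, 74639568 to 74693201) was at 29.2, 34.5 and 29.5 CPM in the Ctrl Inputs, 26.1, 25.9 and 25.2 CPM in the IR Inputs, 10.1, 9.34 and 10.4 CPM in the Ctrl IPs and 9.35, 11.2 and 6.92 CPM in the IR IPs. *Tapbp* thus had the layout of the chains, and *Erap1* was the member whose IR Inputs were all below its Ctrl Inputs. Exons of *Tap2*, *Tapbp* and *Erap1* overlap other genes on the opposite strand (698, 904 and 834 bases), as do those of *Psmb8* (498), *Psmb9* (212, with *Tap1*) and *Nlrc5* (78). Those of *Tapbp* also overlap *Zbtb22* on the same strand (149 bases). The strand setting of the counting is not given in the sources used here.

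The immunoproteasome subunits were at lower CPM than the chains in the Inputs and were also below their Inputs in IP. *Psmb8* (chromosome 17, 34197721 to 34201454) was at 219, 223 and 215 CPM in the Ctrl Inputs, 261, 258 and 263 CPM in the IR Inputs, 92.4, 94.0 and 87.2 CPM in the Ctrl IPs and 91.0, 82.5 and 87.3 CPM in the IR IPs. *Psmb9* (chromosome 17, 34181987 to 34187764) was at 51.8, 52.7 and 49.7 CPM in the Ctrl Inputs, 68.7, 62.3 and 64.6 CPM in the IR Inputs, 17.6, 22.7 and 23.2 CPM in the Ctrl IPs and 23.2, 23.2 and 20.2 CPM in the IR IPs. Both had IR Inputs above all Ctrl Inputs and IPs that overlapped between conditions. *Psmb10* (chromosome 8, 105935735 to 105938444) was at 38.4, 36.9 and 40.4 CPM in the Ctrl Inputs, 43.6, 45.8 and 44.4 CPM in the IR Inputs, 26.9, 31.8 and 29.7 CPM in the Ctrl IPs and 26.8, 21.3 and 24.1 CPM in the IR IPs. Its IPs were below its Inputs by less than those of *Psmb8* and *Psmb9*, and its IR IPs were all below its Ctrl IPs, by a narrow margin in pool 1.

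*Nlrc5* (chromosome 8, 94434356 to 94527272), the transactivator, was a gene of low level in CPM, as were *Psmb10* and *Erap1*. Its IPs all lay below its Inputs, in Ctrl by less than those of *H2-K1* and by more than those of *Psmb10*. *Nlrc5* was at 36.5, 39.3 and 36.0 CPM in the Ctrl Inputs, 38.6, 46.2 and 38.8 CPM in the IR Inputs, 26.1, 27.4 and 25.4 CPM in the Ctrl IPs and 31.6, 35.3 and 29.7 CPM in the IR IPs. Its Inputs overlapped between conditions, as those of no other member did, and its IR IPs lay above its Ctrl IPs, as those of no other member did without overlap.

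Between genes, levels can be set side by side only per length. Per kb of union exon in the Ctrl Inputs, *B2m* was highest at 436 CPM per kb, followed by *H2-D1* (249), *H2-K1* (145), *Tapbp* (68.9), *Psmb8* (64.8), *Tap2* (28.1), *Psmb10* (22.6), *Psmb9* (14.1), *Nlrc5* (4.39) and *Erap1* (4.27). Only the last pair overlapped between pools. In the Ctrl IPs the order was *H2-D1* (115 CPM per kb), *H2-K1* (96.6), *Tap2* (49.3), *B2m* (41.3), *Tapbp* (31.7), *Psmb8* (27.0), *Psmb10* (17.3), *Psmb9* (5.79), *Nlrc5* (3.10) and *Erap1* (1.37), with no overlap between neighbours, so that *B2m* moved from the first place to the fourth and *Tap2* from the sixth to the third. With the length of 1 principal coding transcript in place of union exons, a choice added after the data were seen, *B2m* remained first in the Ctrl Inputs at 436 CPM per kb, *Psmb8* (134) stood above *Tapbp* (86.2), and *H2-K1* (175) stood above *H2-D1* (141) in the Ctrl IPs. *B2m* was then the fifth in the Ctrl IPs (41.3, overlapping *Tapbp*) and *Tap2* the fourth (54.2, overlapping *Psmb8*).

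The members were next compared between IP and Input within each condition, which asks which transcripts YTHDF2 recovered beyond their abundance. In Ctrl, 1 of the 10 members was higher in IP than in Input, against 34.1% of all tested genes, and 9 were lower, against 34.6%. In IR, 1 was again higher, against 32.1%, and 9 were lower, against 30.4%. The median log2(IP/Input) of the members was -1.04 in Ctrl and -1.28 in IR, beside 0.02 and 0.10 over all tested genes. Calls were made by edgeR (quasi-likelihood F test) at an adjusted p under 0.05, adjusted by Benjamini and Hochberg's method over all genes of the fit. Each fit was scaled on its own libraries, so that its log2 values differ from ratios of the CPM above. The CPM scale of the 12 libraries sets the IR Inputs higher over the Ctrl Inputs than the fit of the Inputs does. For *H2-D1* that log2 change was 0.193 with all 12 libraries in one fit and 0.115 in the fit of the Inputs.

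Values per pool take the IP and Input of the same number together. Among the chains, the log2(IP/Input) of *B2m* was -3.27, -3.56 and -3.38 in the Ctrl pools and -3.89, -3.26 and -3.36 in the IR pools. The edgeR fits gave -3.33 (SE 0.057, adjusted p = 4.49e-18) in Ctrl and -3.43 (SE 0.13, adjusted p = 2.26e-09) in IR, so that in Ctrl the IP held 0.0996 times the Input level. *B2m* stood at percentile 1.0 of all tested genes in Ctrl and 0.676 in IR. The value of *H2-D1* was -1.04 (SE 0.045, adjusted p = 9.68e-13 in edgeR) in Ctrl and -1.28 (SE 0.050, adjusted p = 2.55e-09) in IR. For *H2-K1* it was -0.51 (SE 0.038, adjusted p = 1.74e-09 in edgeR) in Ctrl and -0.88 (SE 0.057, adjusted p = 1.79e-07) in IR. The 3 chains, which meet in 1 complex, thus differed widely in IP over Input. The ratio of *B2m* to *H2-K1* within a library, which no scaling of the libraries can change, was 2.96 to 3.07 per kb in the Ctrl Inputs and 0.379 to 0.454 in the Ctrl IPs, and 3.10 to 3.28 and 0.375 to 0.668 in IR.

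**Figure D2:**
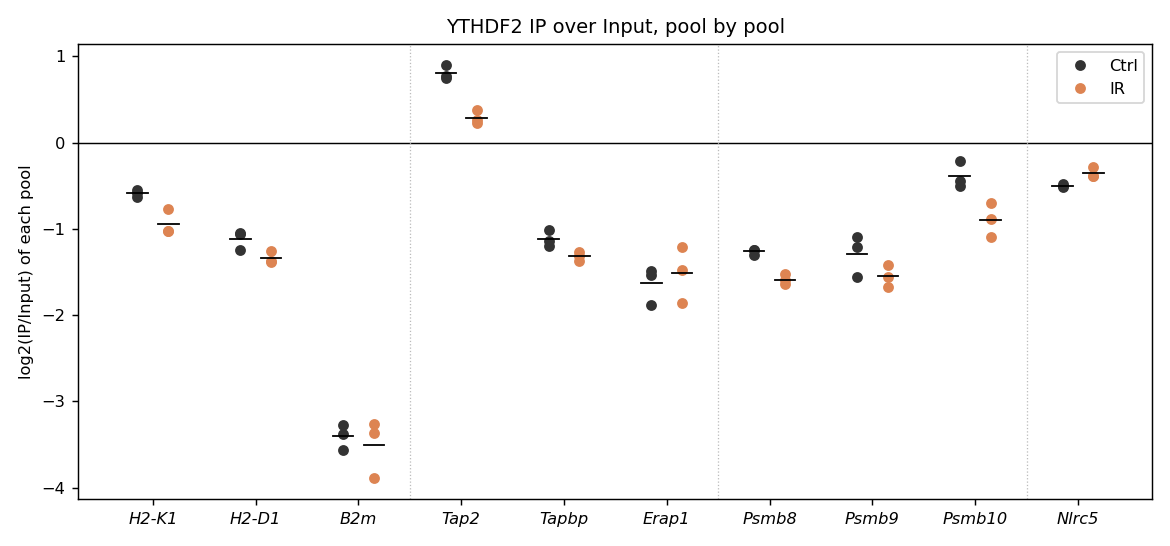
The log2(IP/Input) of each pool (prior count 2, TMM scale of 12 libraries) for the 10 genes in Ctrl and IR, 3 pools each, with black lines at the means. *Tap2* is above 0 in all pools, *B2m* lies between -3.26 and -3.89, and *Nlrc5* is the member with the tightest Ctrl pools (-0.48 to -0.52).

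Of the loading and trimming genes, *Tap2* had a log2(IP/Input) of 0.90, 0.74 and 0.78 in the Ctrl pools and 0.38, 0.22 and 0.26 in the IR pools. Its fitted values were 0.89 (SE 0.051, adjusted p = 4.98e-11 in edgeR) in Ctrl, or 1.85-fold, and 0.34 (SE 0.071, adjusted p = 1.51e-03) in IR, or 1.27-fold. This placed *Tap2* at percentile 74.0 of all tested genes in Ctrl and 57.0 in IR. *Tapbp* was at -1.04 (SE 0.049, adjusted p = 2.61e-12 in edgeR) in Ctrl and -1.27 (SE 0.048, adjusted p = 2.35e-09) in IR. *Erap1* was at -1.57 (SE 0.11, adjusted p = 6.80e-10 in edgeR) in Ctrl and -1.44 (SE 0.17, adjusted p = 3.14e-05) in IR, with pools from -1.49 to -1.88 and from -1.21 to -1.86.

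Because *Tap2* was the enriched member and *B2m* the most depleted, the places of GGACT in both are shown. Each line gives 21 bases of the GENCODE M21 principal transcript, 5′ to 3′, with GGACT in capitals, at its mm10 position on the plus strand. The first 4 sites of *Tap2* are in its coding sequence and the last pair in its 3′ UTR, and the single site of *B2m* is in its coding sequence.

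*Tap2*, chr17:34205395-34205415: ggctgccaGGACTctggatag
*Tap2*, chr17:34205437-34205457: tgctgtggGGACTgctaaaag
*Tap2*, chr17:34205464-34205484: agctgctgGGACTtgtgggga
*Tap2*, chr17:34214709-34214729: ggcctgagGGACTgtgaggac
*Tap2*, chr17:34216112-34216132: ccctctcaGGACTgtggccag
*Tap2*, chr17:34216188-34216208: accgttttGGACTttgtgtgt
*B2m*, chr2:122151031-122151051: ttcagcaaGGACTggtctttc

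Per kb of transcript, searched on the transcript strand only, *Tap2* held 1.74 GGACT and *B2m* 1.16, against a median of 1.06 over 13032 tested genes, of which 91.4% held at least 1. The members with the most were *Psmb8* (3.07 per kb) and *Psmb10* (2.29), both lower in IP than in Input, *Psmb10* by the least of the lower members in Ctrl. *Nlrc5* held 12 sites (1.58 per kb). The lowest densities were those of *Erap1* (0.709), *Psmb9* (0.74) and *B2m*, the members with the lowest fitted log2(IP/Input) in Ctrl. There, however, *Psmb9* (-1.21, SE 0.098) differed from *Psmb8* (-1.19, SE 0.048), the member of highest density, by less than its SE. In IR, *Psmb8* (-1.53) lay below *Psmb9* (-1.50) and *Erap1* (-1.44). Whether density goes with IP over Input was not tested, and which of the sites carry m6A was not measured in these libraries.

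The immunoproteasome subunits fell into a pair with like values, *Psmb8* and *Psmb9*, with *Psmb10* apart. *Psmb8* was at -1.24, -1.25 and -1.30 on the log2(IP/Input) scale in the Ctrl pools, with a fitted value of -1.19 (SE 0.048, adjusted p = 3.80e-13 in edgeR), and at -1.53 (SE 0.055, adjusted p = 1.52e-09) in IR. *Psmb9* was at -1.21 (SE 0.098, adjusted p = 5.85e-09 in edgeR) in Ctrl and -1.50 (SE 0.094, adjusted p = 1.39e-07) in IR. *Psmb10* was at -0.31 (SE 0.086, adjusted p = 0.00393 in edgeR) in Ctrl and -0.84 (SE 0.11, adjusted p = 5.33e-05) in IR. The Ctrl call of *Psmb10* was lost without pool 1 (adjusted p = 0.0546) and without pool 3 (adjusted p = 0.0503). *Psmb8*, *Psmb9* and *Psmb10* replace *Psmb5*, *Psmb6* and *Psmb7*, the constitutive subunits, and within a library the immune subunit was higher relative to its constitutive counterpart in IP than in Input for all 3. Per kb, *Psmb10* over *Psmb7* was 2.1 ± 0.061 in the Ctrl Inputs and 8.11 ± 1.52 in the Ctrl IPs (SD, n = 3), *Psmb8* over *Psmb5* was 1.75 ± 0.12 and 2.85 ± 0.33, and *Psmb9* over *Psmb6* was 0.171 ± 0.0055 and 0.255 ± 0.040. In each of these pairs no Ctrl IP overlapped a Ctrl Input, and the same held between the IR libraries.

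**Figure D3:**
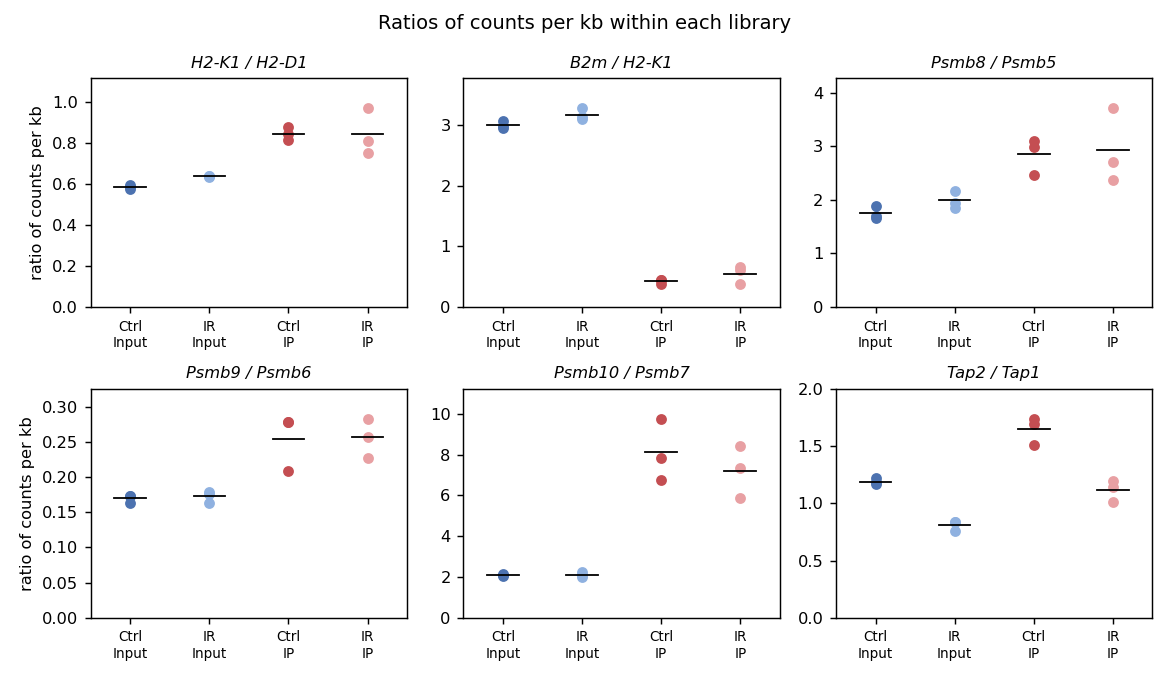
Ratios of counts per kb of union exon between a pair of genes of the same library, for Ctrl Input, IR Input, Ctrl IP and IR IP (3 pools each, black lines at the means, axes from 0). The *B2m* to *H2-K1* ratio falls from about 3.0 in the Ctrl Inputs to 0.428 in the Ctrl IPs, the *Psmb10* to *Psmb7* ratio rises from 2.1 to 8.11, and the *Tap2* to *Tap1* ratio is lower in IR than in Ctrl in both fractions.

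*Nlrc5* was set beside the other members. Its log2(IP/Input) was -0.48, -0.52 and -0.50 in the Ctrl pools and -0.28, -0.39 and -0.38 in the IR pools. The fitted value was -0.43 (SE 0.083, adjusted p = 2.01e-04 in edgeR) in Ctrl and -0.30 (SE 0.11, adjusted p = 0.0341) in IR, so that the transactivator was itself lower in IP than in Input, at percentile 35.7 of all tested genes in Ctrl and 37.6 in IR. The IR call did not hold under 9 of its 12 alternatives, among them each pool left out in turn (adjusted p = 0.143 to 0.232 in edgeR) and library size only (adjusted p = 0.275).

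Taken per pool in the same way, *Nlrc5* was above the mean of the chains by 1.14, 1.22 and 1.25 in Ctrl and by 1.73, 1.5 and 1.5 in IR on the log2(IP/Input) scale. It was above the mean of the immunoproteasome subunits by 0.62, 0.37 and 0.44 in Ctrl and by 0.98, 1.0 and 1.0 in IR. Against the loading and trimming genes the difference was 0.12, 0.24 and 0.07 in Ctrl and 0.51, 0.38 and 0.61 in IR. For each class the IR pools lay above the Ctrl pools, and the mean differences went from 1.20 ± 0.055 to 1.58 ± 0.13 for the chains, from 0.48 ± 0.13 to 0.99 ± 0.015 for the immunoproteasome and from 0.15 ± 0.086 to 0.50 ± 0.11 for loading and trimming (SD, n = 3). These differences between genes of the same library do not depend on how libraries are scaled, and no test was run on them. The class means hide their members: in Ctrl, *Nlrc5* (mean -0.50) was close to *H2-K1* (mean -0.59) and below *Psmb10* (mean -0.39), and the distance from the chains came largely from *B2m*. Of the loading and trimming genes in Ctrl, *Nlrc5* was far below *Tap2* (mean 0.81) and above *Tapbp* (mean -1.12) and *Erap1* (mean -1.63).

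The change with IR was then compared in the Input, which asks whether abundance differed, and in the IP. In the Inputs, 7 of the 10 members were higher in IR, against 21.0% of all tested genes, and 1 was lower, against 23.9%, and the median log2 fold change of the members was 0.15, beside 0.01 over all tested genes. In the IPs, 0 members were higher in IR by edgeR, against 6.12% of all tested genes, and 1 was lower, against 9.85%. At an unadjusted p under 0.05, 2 members were higher (*B2m* and *Nlrc5*) with edgeR and with DESeq2, which also called 0 after adjustment. The members' median in the IPs was -0.02, beside 0.06 over all tested genes.

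*B2m* rose most in the Inputs, by 0.31 on the log2 scale (SE 0.030, adjusted p = 2.33e-09 in edgeR), a 1.24-fold change. *H2-K1* rose by 0.24 (SE 0.030, adjusted p = 3.13e-07 in edgeR) and *H2-D1* by 0.11 (SE 0.029, adjusted p = 0.00217). All 3 chains were therefore higher in the IR Inputs. In the IPs the log2 fold changes were 0.33 for *B2m* (SE 0.15, adjusted p = 0.154 in edgeR), -0.02 for *H2-K1* (SE 0.062, adjusted p = 0.854) and -0.02 for *H2-D1* (SE 0.063, adjusted p = 0.894). *B2m* passed the threshold without the IR IP of pool 1 (0.51, adjusted p = 0.00642 in edgeR), without pool 1 of both conditions (0.56, adjusted p = 0.0109), with all 12 libraries in one fit (0.32, adjusted p = 0.0342) and with library size only (0.53, adjusted p = 0.0190).

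Of the loading and trimming genes, *Tap2* rose by 0.21 in the Inputs (SE 0.040, adjusted p = 1.09e-04 in edgeR) and *Tapbp* by 0.11 (SE 0.032, adjusted p = 0.00659), whereas *Erap1* fell by 0.35 (SE 0.071, adjusted p = 1.91e-04). The *Tapbp* call was lost without pool 2 (adjusted p = 0.0987) or pool 3 (adjusted p = 0.120), and the *Erap1* call with all 12 libraries in one fit (adjusted p = 0.206). *Tap2* was the member called in the IPs, where it fell by 0.23 (SE 0.074, adjusted p = 0.0497 in edgeR), a call at the threshold that was lost without any 1 of the pools (adjusted p = 0.0964 to 0.359). The log2 fold changes in the IPs were -0.01 for *Tapbp* (SE 0.073, adjusted p = 0.966 in edgeR) and -0.11 for *Erap1* (SE 0.23, adjusted p = 0.807).

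*Psmb9* rose by 0.26 in the Inputs (SE 0.050, adjusted p = 8.39e-05 in edgeR) and *Psmb8* by 0.17 (SE 0.033, adjusted p = 7.81e-05), while *Psmb10* was at 0.13 (SE 0.055, adjusted p = 0.0543). In the IPs the log2 fold changes were 0.08 for *Psmb9* (SE 0.16), -0.06 for *Psmb8* (SE 0.080) and -0.29 for *Psmb10* (SE 0.14), with adjusted p = 0.186 for *Psmb10* and 0.691 or more for the other two in edgeR. *Nlrc5* was at 0.06 in the Inputs (SE 0.066, adjusted p = 0.461 in edgeR) and at 0.30 in the IPs (SE 0.13, adjusted p = 0.123). With all 12 libraries in one fit the IP value of *Nlrc5* was 0.29 with adjusted p = 0.0372 in edgeR, and that of *Psmb10* was -0.30 with adjusted p = 0.0364.

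**Figure D4:**
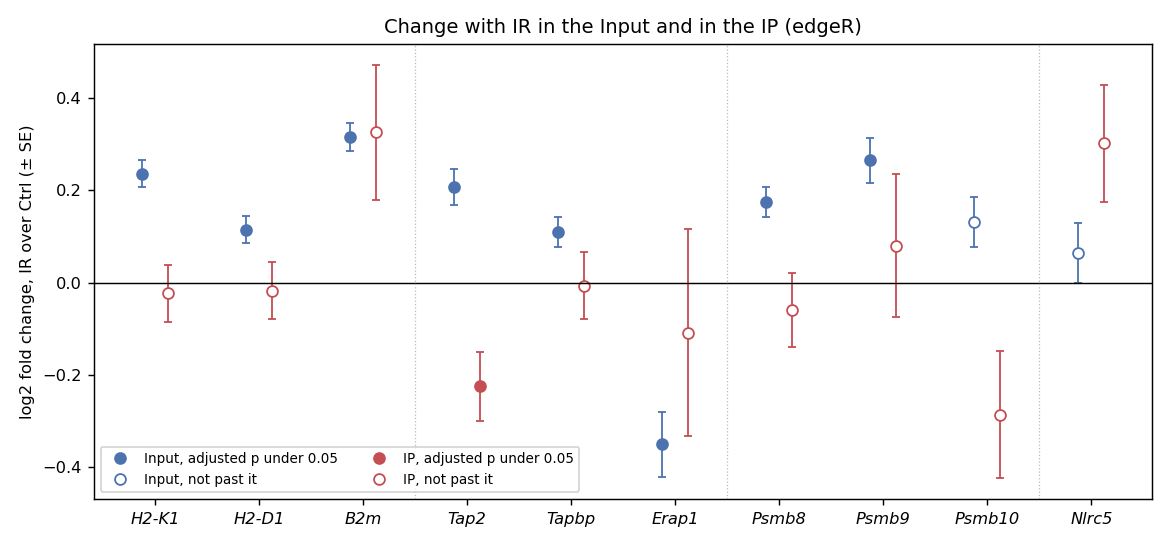
The log2 fold change of IR over Ctrl in the Inputs (blue) and in the IPs (red) for the 10 genes, with bars of 1 SE from edgeR; filled points had an adjusted p under 0.05. In the Input, 7 members are higher and *Erap1* is lower, and in the IP only *Tap2* is past the threshold.

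The summed marker levels of the cells also differed between the Inputs of the conditions, but the markers of a list did not all move together. Myeloid markers summed to 5670 to 6166 CPM in the Ctrl Inputs and 7508 to 7911 CPM in the IR Inputs, dendritic cell markers to 223.8 to 228.0 and 266.7 to 273.2 CPM, B and plasma cell markers to 18.7 to 20.1 and 25.3 to 28.1 CPM, and fibroblast markers to 6.03 to 6.83 and 7.85 to 12.6 CPM. Tumor and epithelial markers, of which *Krt8* and *Krt19* were at no more than 3 counts in every Input, were lower in IR, at 119.4 to 127.4 and 90.9 to 96.9 CPM, and endothelial markers were at 25.3 to 26.8 and 21.9 to 24 CPM. T and NK cell markers were near 0 in both conditions. Taken singly in edgeR, 3 of 7 myeloid markers were higher and 2 lower in the IR Inputs, against 21.0% and 23.9% of all tested genes. Of 5 tested dendritic cell markers 2 were higher and 2 lower, and of 5 B and plasma cell markers 1 was higher and 2 lower. Of the myeloid markers, *Itgam* went from 944 to 1719 CPM and *S100a8* from 2103 to 2905 CPM, while *Lyz2* went from 2469 to 2587 CPM. The part of these cells in the changes of the members was not tested, and in bulk samples fewer cells of a type and less RNA per cell cannot be told apart.

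Finally the change of IP over Input with IR was tested directly, with the fraction-by-radiation interaction of a model of the 12 libraries. On the TMM scale, 6 of the 10 members were lower in IR, against 13.9% of all tested genes, and 0 were higher, against 6.28% (also 0 at an unadjusted p under 0.05, and 0 with DESeq2, which gave 4 lower), and the members' median was -0.25, beside -0.08 over all tested genes. The largest changes were those of *Tap2*, at -0.52 (SE 0.089, adjusted p = 2.23e-04 in edgeR), and *Psmb10*, at -0.51 (SE 0.14, adjusted p = 0.0125). *H2-K1* was at -0.35 (SE 0.068, adjusted p = 8.71e-04 in edgeR), *Psmb8* at -0.32 (SE 0.071, adjusted p = 0.00237), *H2-D1* at -0.22 (SE 0.069, adjusted p = 0.0281) and *Tapbp* at -0.20 (SE 0.069, adjusted p = 0.0419). For *Tap2*, *Psmb10*, *H2-K1*, *Psmb8*, *H2-D1* and *Tapbp* the log2(IP/Input) of the IR pools did not overlap that of the Ctrl pools. These are the values behind the calls and add no separate support. The nearest pools were at -1.24 (Ctrl) and -1.26 (IR) for *H2-D1* and at -1.2 and -1.27 for *Tapbp*. How many of all tested genes separate in this way was not counted. Without pool 2, *Tap2* was the 1 member still past the threshold, and the adjusted p in edgeR was 0.0766 for *H2-K1*, 0.0828 for *Psmb8*, 0.287 for *Psmb10*, 0.366 for *H2-D1* and 0.239 for *Tapbp*. *Psmb10* was also lost without pool 3 (adjusted p = 0.100), *Tapbp* without pool 1 (0.0563) or pool 3 (0.465), and *H2-D1* without pool 1 (0.274) or without the IR IP of that pool alone (0.0782).

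*Psmb9* was at -0.27 (SE 0.14, adjusted p = 0.210 in edgeR), *B2m* at -0.08 (SE 0.14, adjusted p = 0.776), *Erap1* at 0.15 (SE 0.21, adjusted p = 0.679) and *Nlrc5* at 0.15 (SE 0.14, adjusted p = 0.528). *Nlrc5* was the member whose IR pools all lay above its Ctrl pools, though not past the threshold.

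The direction of these changes depended on the scaling. With library size only, the median of all genes moved by 0.31 (log2), 0 members were lower and 1, *Nlrc5*, was higher (0.46, adjusted p = 0.0281 in edgeR), and *H2-D1*, *B2m*, *Tapbp* and *Psmb9* had values above 0. Over all genes, 31.1% of the changed genes were higher on the TMM scale and 76.5% with library size only. A change of scaling moves all genes by about the same amount and so leaves the order of the members, with *Tap2* and *Psmb10* lowest (-0.21 and -0.19 with library size only), nearly as it was by construction.

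**Figure D5:**
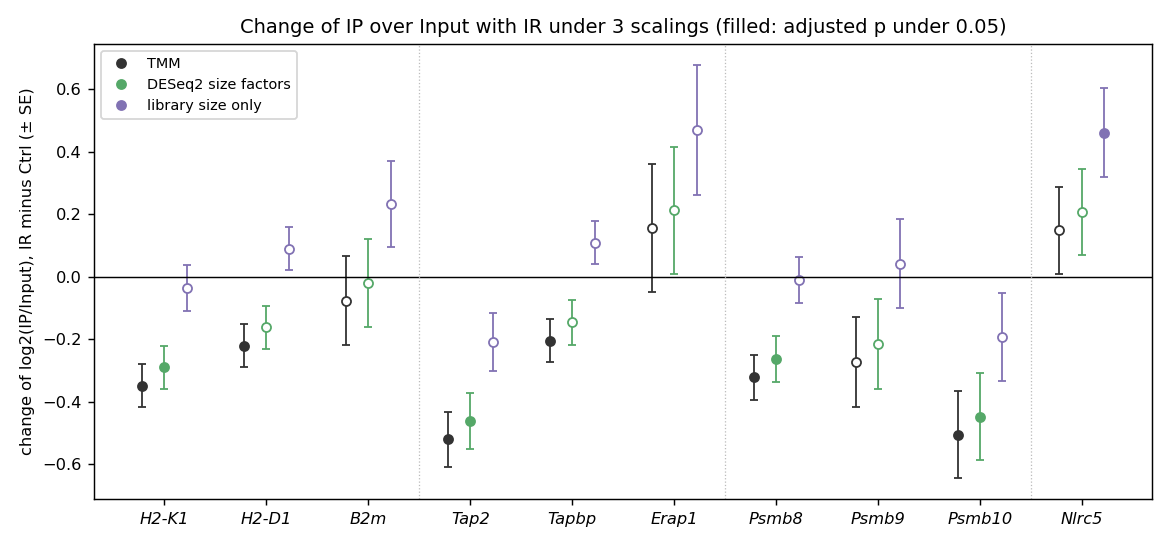
The change of log2(IP/Input), IR minus Ctrl, with bars of 1 SE, after scaling by TMM, by DESeq2 size factors and by library size only; filled points had an adjusted p under 0.05 in edgeR. All members move up by about the same amount with library size only, as the change of scaling entails, and the calls of lower values are lost.

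The rest of the pathway was described by 46 further genes in 4 lists, of which 44 were tested in each comparison (*H2-Q2* and *H2-Bl* were not). In Ctrl, 16 were higher in IP than in Input, against 34.1% of all tested genes, and 26 were lower, against 34.6%, with a median log2(IP/Input) of -0.45 beside 0.02 over all genes. In IR, 8 were higher, against 32.1%, and 25 were lower, against 30.4%, with a median of -0.60 beside 0.10. In the Inputs 19 were higher in IR, against 21.0%, and 6 were lower, against 23.9%. In the IPs 3 were higher, against 6.12%, and 9 were lower, against 9.85%. The change of IP over Input with IR was past the threshold in 17 lower genes, against 13.9% of all tested genes, and in 1 higher gene, against 6.28%.

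Of 14 tested class Ib and class I-like chains, 4 were higher and 8 lower in IP in Ctrl (34.1% and 34.6% of all tested genes). The nonclassical heavy chain *H2-Q6* was at 3.19 (SE 0.051, adjusted p = 1.84e-18 in edgeR) in Ctrl and 2.53 (SE 0.053, adjusted p = 3.52e-11) in IR, and *H2-Q4* at 2.42 (SE 0.042, adjusted p = 5.05e-18) and 1.82 (SE 0.042, adjusted p = 6.65e-11). These are close relatives of *H2-K1* and *H2-D1*, which were lower in IP, and their reads are uncertain in the same way. *Cd1d1*, which presents lipids, was at -1.82 in Ctrl and -1.39 in IR. The change with IR was -0.64 for *H2-Q6* (adjusted p = 2.00e-06 in edgeR) and -0.58 for *H2-Q4* (adjusted p = 2.91e-07).

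Of 11 loading and trimming genes outside the members, 5 were higher and 6 lower in IP in Ctrl (34.1% and 34.6% of all tested genes). The chaperone *Canx* (calnexin) was at 1.36 and the aminopeptidase *Lap3* at -2.19. *Tap1*, the partner of *Tap2* in the transporter, rose most of this list in the IR Inputs. Its fitted log2 fold change was 0.77 (SE 0.035, adjusted p = 7.39e-16 in edgeR), against 0.21 for *Tap2*. In CPM on the scale of the 12 libraries, *Tap1* went from 129 to 232. Within a library the ratio of *Tap2* to *Tap1* was 1.17 to 1.22 per kb in the Ctrl Inputs and 0.755 to 0.837 in the IR Inputs, and 1.51 to 1.74 in the Ctrl IPs and 1.01 to 1.20 in the IR IPs. The change of IP over Input with IR was -0.52 for *Tap1* (SE 0.079, adjusted p = 5.94e-05 in edgeR), beside the -0.52 of *Tap2*. In log2(IP/Input), *Tap1* was at 0.42 in Ctrl (adjusted p = 2.12e-06 in edgeR) and -0.12 in IR (adjusted p = 0.0682), a pair of values chosen after they were seen because *Tap1* is the partner of *Tap2*.

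Of the 6 proteasome partners, 5 were lower in IP in Ctrl (34.6% of all tested genes) and 6 in IR (30.4%). The constitutive subunits were at -2.22 (*Psmb7*), -1.88 (*Psmb5*) and -1.78 (*Psmb6*) in Ctrl, below their immune counterparts. The interferon-induced activator subunits *Psme2* and *Psme1* rose in the Inputs by 0.34 and 0.25 and changed in IP over Input by -0.74 (adjusted p = 1.56e-07 in edgeR) and -0.45 (adjusted p = 6.13e-04), whereas *Psme3*, the nuclear activator, fell by 0.48 in the Inputs.

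Of the 13 regulators, 6 were higher and 7 lower in IP in Ctrl (34.1% and 34.6% of all tested genes). *Creb1*, a factor of the class I promoter module, was at 1.79 (SE 0.041, adjusted p = 1.46e-16 in edgeR) and *Rfxap*, a subunit of the RFX complex on which *Nlrc5* assembles, at 1.48 (SE 0.086, adjusted p = 6.03e-11), while the NF-Y subunit *Nfyc* was at -1.36. *Ciita*, the class II counterpart of *Nlrc5*, was at 0.92 in Ctrl (adjusted p = 9.11e-11 in edgeR) and 0.55 in IR (adjusted p = 7.11e-06), a comparison added after its values were seen, so that the pair of transactivators lay on opposite sides of their Inputs. In the Inputs *Ciita* rose by 0.27 (adjusted p = 5.45e-07 in edgeR) and *Irf9*, a subunit of the interferon-activated factor ISGF3, by 0.32. *Stat2*, another subunit of that factor, changed by -0.48 in IP over Input with IR (adjusted p = 5.92e-04 in edgeR).

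Among 8558 protein-coding genes with a mean of at least 10 CPM, the profiles most like that of *Nlrc5* over the 12 libraries, by the root mean square distance of centred log2 CPM, were those of *Vat1* (0.073), *Abr* (0.078) and *Cd44* (0.086). For *H2-K1* they were *Cacnb3* (0.051), *Sbds* (0.054) and *Txndc9* (0.064), and for *Psmb8* they were *Sept7* (0.063), *Mlf2* (0.073) and *Taldo1* (0.073). No member was among the 3 nearest profiles of *Nlrc5*, *H2-K1* or *Psmb8*.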

How the data were processed

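YTHDF2 RIP-seq counts of 12 libraries were used. Before deposit, the authors used Trimmomatic 0.39 for trimming, HISAT for alignment (mm10, GENCODE M19) and HTSeq for counting, and the deposited values are raw counts per gene. The strand option, the treatment of duplicates and that of reads fitting several genes are not given in the sources used here. The sample labels name an Abcam antibody and polyA RNA, and the methods an Aviva antibody and a total RNA kit. Summary lines for uncounted reads stayed out of library sizes. Symbols and coordinates came from GENCODE M21 of the same build (99.9% of identifiers matched), and promoter windows from RefSeq.

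TMM scaling and edgeR 4.0.16 (R 4.3.3, quasi-likelihood F test) were applied to the genes that reached 10 counts in 3 or more libraries of the comparison, with Benjamini-Hochberg adjusted p under 0.05 as the threshold. The SE of a log2 fold change is its size over the square root of F. Values per pool used a prior count of 2. DESeq2 1.42.0, other scalings and filters, a replicate block and each replicate left out were alternatives. The level of 3 counts covers counting error only. TMM takes most genes as unchanged, so a shift shared by most genes is not seen. The steps were tested on simulated counts with 200 genes changed 2-fold. In the comparisons with IR IPs, edgeR without a block recovered 70.0% to 72.5% of them, with 3.97% to 4.11% of its calls false. DESeq2 had 12.4% to 17.5% of its calls false there. Without IR IPs, edgeR recovered 91.5% (IP over Input in Ctrl) and 98.5% (Inputs). Smaller changes, such as those of most members with IR, were not simulated.

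The members and lists were chosen with earlier results of these data known. The named genes were all members, *Ythdf2*, up to 3 genes of each further pathway list and comparison with the largest change past the threshold, and the 3 nearest profiles of *Nlrc5*, *H2-K1* and *Psmb8*, besides those named as added. Some genes that this rule names are not reported here. According to the methods, part of each lysate was kept as its Input. That libraries with the same number came from the same lysate is not stated, and their deviations from the group means were not correlated across genes (mean r of -0.026 in Ctrl and -0.0036 in IR). The main fits have no replicate block.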

Additional observations from a re-analysis of the deposited data

Results flagged for a closer look

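The change of log2(IP/Input) with IR was past the threshold for 6 members, all lower, against 13.9% of all tested genes lower and 6.28% higher. The test was of the difference between Ctrl and IR in the effect of the IP (edgeR's interaction over 12 libraries, Benjamini-Hochberg adjusted p under 0.05). The values were -0.35 for *H2-K1*, -0.22 for *H2-D1*, -0.52 for *Tap2*, -0.20 for *Tapbp*, -0.32 for *Psmb8* and -0.51 for *Psmb10*. With library size only none of the 6 was past the threshold, and those of *H2-D1* and *Tapbp* were above 0. Without pool 2, only *Tap2* was still past it. Beside these changes, the share of aligned reads outside genes was 49.41% to 54.09% in the IR IPs and 41.77% to 42.69% in the Ctrl IPs, and its part in the result was not tested. Groups of 3 libraries were too small for a check of outlying samples.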

How the results depend on the processing

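Over all comparisons and alternatives, 483 values of single members kept their direction and side of the threshold, 45 were no longer past it, 11 newly passed it and 31 changed sign, all of the last in the change of IP over Input or in the IPs. The causes were not tested. IP over Input kept 1 member higher and 8 or 9 lower in both conditions under every alternative. Except where stated, the share of all tested genes called under an alternative is not given beside the counts of members. Between the scalings the median of all genes moved by -0.18 (Ctrl) and 0.15 (IR) for IP over Input and by 0.21 for IR over Ctrl in the IPs with library size only. Over all genes, 38.3% of the genes called in the IPs were higher on the TMM scale and 76.3% with library size only. Of 40 group levels, 16 moved by more than 1 SD with DESeq2 size factors, 19 with library size only and 0 with a replicate left out. The last count could not differ from 0, because leaving out a library of so small a group shifts its mean by less than 1 SD. It therefore does not test how stable the levels are. Every member had at least 207 counts in each library.

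For the change of IP over Input with IR, library size only gave 1 member higher and 0 lower, and values of 0.0903 for *H2-D1*, 0.233 for *B2m*, 0.109 for *Tapbp* and 0.0424 for *Psmb9*. Over all genes, the calls went from 1301 higher and 2881 lower to 2862 higher and 877 lower with library size only. *B2m* was at 0.0319 with at least 10 counts in every library, 0.00156 with nuclear protein-coding genes and 0.109 without the IR IP of pool 1, an alternative added after the data were seen. Leaving out each replicate gave 1 to 4 members lower, and ranges of -0.252 to 0.194 for *B2m* and -0.109 to 0.401 for *Erap1*. In the Inputs, all 12 libraries in one fit gave 0 members lower.

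For IR over Ctrl in the IPs, the main counts of 0 higher and 1 lower became 3 and 0 with library size only, and 2 and 2 with all 12 libraries in one fit. Over all genes, the calls went from 1179 higher and 1896 lower to 2665 higher and 828 lower with library size only. There were 0 lower with DESeq2 size factors, with at least 10 counts in every library and with nuclear protein-coding genes, and 1 higher without the IR IP of pool 1. Each replicate left out gave 0 to 1 higher and 0 lower. With library size only, log2 values were 0.183 for *H2-K1*, 0.187 for *H2-D1*, 0.2 for *Tapbp*, 0.0994 for *Erap1* and 0.146 for *Psmb8*. With at least 10 counts in every library they were 0.0296 for *H2-K1*, 0.0347 for *H2-D1* and 0.0456 for *Tapbp*, and with nuclear protein-coding genes 0.0042, 0.00953 and 0.0202. *Tapbp* was at 0.00529 with DESeq2 size factors and 0.00546 with the DESeq2 test, and *H2-D1* at 0.034 without the IR IP of pool 1. Ranges with each replicate, or the IR IP of pool 1, left out were -0.0788 to 0.0497 for *H2-K1*, -0.0941 to 0.0591 for *H2-D1*, -0.0291 to 0.0809 for *Tapbp*, -0.297 to 0.107 for *Erap1*, -0.0816 to 0.0245 for *Psmb8* and -0.0497 to 0.228 for *Psmb9*.

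With the replicate block, 1 member was higher and 9 lower for IP over Input, both in Ctrl and in IR, 5 were lower for the change with IR (*Tapbp* being lost, adjusted p = 0.0826 in edgeR), and 8 were higher and 1 lower in the Inputs, where *Psmb10* newly passed (adjusted p = 0.0448 in edgeR). In the comparisons between Ctrl and IR, pools share only a number and come from different mice. The differences between *Nlrc5* and each class did not move by more than the spread between pools under any alternative. Such a move could hardly appear with other scalings, which cancel between genes of the same library. Taking IP against the mean Input of its condition leaves the group mean nearly as it was. Leaving out a pool of so small a group shifts its mean by less than that spread. These alternatives therefore do not test how stable the differences are.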
